A study of Mus musculus with 5 samples.

Results

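Csf2 and Il3 were followed across the 5 libraries of the study. Both were taken by their symbols, 2 of the 27726 genes common to the 5 count matrices, and were read in every barcode with 200 or more genes and under 5% mitochondrial counts, which kept 16530 of 18628 barcodes. Csf2 encodes granulocyte-macrophage colony-stimulating factor (GM-CSF), and Il3 encodes interleukin 3. Their levels were then set beside those of Il5 and Il13, the cytokine genes to which the same choice ties them.

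The study asked how a growing tumour changes group 2 innate lymphoid cells (ILC2s) of the lung, and whether stimulation ex vivo changes them further. All cells came from female wild type C57BL/6 mice of 4 to 8 weeks, pooled over 5 per group. They were sorted from lung as lineage-negative CD45+ Thy1.2+ CD127+ ST2+ cells. Naïve ILC2s came from mice with no tumour and were sequenced fresh (1 library). Tumour-associated (ta) ILC2s came from mice with TC1 cells under the skin of the right flank, a transplanted tumour of transformed C57BL/6 lung epithelial cells that lay outside the lung. Ta-non-activated ILC2s were sequenced fresh 2 and 3 weeks after implantation (1 library each). Ta-activated ILC2s of the same 2 time points were first cultured for 7 days with human IL-2, mouse IL-33 and TSLP, at 10 ng/mL each (1 library each). The culture and its cytokines cannot be told apart, since no library came from cells cultured without them.

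GM-CSF and IL-3 are growth factors of myeloid cells. Each binds its own alpha chain (Csf2ra, Il3ra) and signals through a beta chain that the IL-5 receptor also uses, by way of JAK2 and STAT5. ILC2s are known as makers of IL-5, IL-13 and GM-CSF, whereas IL-3 is best known from activated T cells, mast cells and basophils. Transcription of both genes is known to follow NFAT, AP-1 and NF-kB, and Csf2 mRNA is a classical target of decay through AU-rich elements.

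The 2 genes lie side by side on chromosome 11 in the same orientation. In GENCODE M21 (GRCm38), Csf2 (ENSMUSG00000018916) spans chr11:54247271-54249667 on the minus strand with 4 exons, and Il3 (ENSMUSG00000018914) spans chr11:54265303-54267277 on the minus strand with 5 exons. Their bodies are 15635 bases apart. The starts of Il5 and Il13 lie on the same chromosome, 528873 and 614965 bases from the start of Csf2. The 250 bases before each RefSeq start (GRCm38.p6) are shown as the promoter side of each gene in that annotation, with matches to 7 short motifs in capitals.
Csf2, chr11:54249900-54250149, minus strand: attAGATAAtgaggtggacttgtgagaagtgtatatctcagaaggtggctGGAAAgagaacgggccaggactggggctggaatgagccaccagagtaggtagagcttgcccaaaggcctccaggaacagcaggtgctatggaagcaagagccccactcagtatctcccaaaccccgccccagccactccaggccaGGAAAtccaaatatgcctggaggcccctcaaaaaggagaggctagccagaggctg
Il3, chr11:54267280-54267529, minus strand: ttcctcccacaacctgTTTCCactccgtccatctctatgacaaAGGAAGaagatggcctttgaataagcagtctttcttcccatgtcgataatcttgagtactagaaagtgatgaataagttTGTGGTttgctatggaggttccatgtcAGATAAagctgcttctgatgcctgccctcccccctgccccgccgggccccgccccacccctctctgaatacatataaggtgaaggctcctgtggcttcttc
The capitals mark matches on either strand, and no match overlapped another. The GATA motif AGATAA stood 1 time in each window, and 9.99% of the 32817 promoter windows of that length hold it. The NFAT motif GGAAA was found 2 times before Csf2 and 1 time before Il3, and 55.6% of all windows hold it. The RUNX motif TGTGGT was found 1 time before Il3 and not before Csf2, and 14.04% of all windows hold it. The same held for the ETS motif AGGAAG, with 29.5% of all windows. TGANTCA (AP-1), TATAAA and GGGANTTCC (NF-kB) were in neither window, and 6.75%, 12.4% and 1.43% of all windows hold them. The RefSeq start of Csf2 lies 232 bases before the GENCODE start, so the Csf2 window lies farther out, and the bases between the starts were not read here. A match of letters is a description of these windows and not a measured site.

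The 3′ ends were read for AU-rich elements. The annotated 3′ UTR of Csf2 (317 bases) holds the pentamer ATTTA, the core of AU-rich elements, 9 times. This is 28.4 per 1000 bases, against a median of 1.35 over 19844 genes with 3′ UTRs of 100 bases or more, of which 0.0403% were as dense. The 3′ UTR of Il3 as annotated in GENCODE M21 (101 bases) holds it 1 time, or 9.90 per 1000 bases. This is a density that 0.872% of those genes reach. That of Il5 (1092 bases) holds it 7 times (6.41 per 1000, reached by 3.84%) and that of Il13 (741 bases) 3 times (4.05 per 1000, reached by 12.5%). The 30 bases of each 3′ UTR with the most pentamers are shown, with the pentamers in capitals.
Csf2, chr11:54247329-54247358, minus strand: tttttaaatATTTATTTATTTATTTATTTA
Il3, chr11:54265307-54265336, minus strand: ctttatgccatcaaatgtcttatcaATTTA
The Csf2 stretch holds 5 overlapping copies. RefSeq runs the Il3 gene 218 bases farther at its 3′ end than GENCODE M21, and the Csf2 gene 1 base farther. Those bases were not searched for the pentamer. The count, density and stretch given for Il3 therefore hold for the shorter GENCODE end only. The libraries read the 3′ ends of transcripts, and the annotation used for counting is not given in the sources used here. The part of the differing 3′ ends in the low Il3 counts was not tested.

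Counts are unique molecular identifiers (UMIs), 1 per captured transcript, so that a level is not scaled to the length of a gene. A level is the UMIs of a gene per 1000000 UMIs of all kept cells of a library (CPM), with an exact Poisson 95% interval. Where 5 levels of a gene are listed together, they follow the order naïve, ta-non-activated week 2, ta-non-activated week 3, ta-activated week 2 and ta-activated week 3. The libraries kept 1601 to 6389 cells with medians of 4396 to 16090 UMIs, and pairs of libraries shared 1 to 8 cell barcodes. All 9 ILC2 markers (Gata3, Il1rl1, Rora, Arg1, Il7r, Icos, Klrg1, Il17rb and Il2ra) were detected in each library. In the ta-non-activated library of week 3, 905 of 1601 cells had UMIs of 3 or more T cell genes and of more of these than of the ILC2 markers, here called the T cell gate. The same gate took 378 of 6389 naïve cells and 17 to 79 cells of the other libraries. The ta-non-activated library of week 2 also stood apart from the other fresh libraries. Its Il9 level was 12576, against 0.0926 in the naïve library and 0 in week 3, and its Fos level was 0.692, against 1151 and 592. The Fos levels of the ta-activated libraries were 1.95 and 1.42. The naïve matrix header names version 6.0.0 of the counting software, and the others name 3.0.2. The part of this difference in the naïve levels, shares and ratios given below was not tested.

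Csf2 was detected in every library, and its level spanned a 45.3-fold range. It was highest in the ta-non-activated library of week 2 at 1432 CPM (95% interval 1419 to 1445, from 47592 UMIs). The naïve library followed at 356 (350 to 363, from 11540 UMIs) and the ta-activated library of week 3 at 183 (from 11309 UMIs). The ta-activated library of week 2 stood at 60.0 (from 3440 UMIs) and the ta-non-activated library of week 3 at 31.6 (28.1 to 35.4, from 297 UMIs). No neighbouring intervals in this order overlapped, but they cover counting error only, and with 1 library each the spread between libraries of a kind is unknown. They also treat UMIs as independent, whereas the 297 UMIs of the ta-non-activated library of week 3 lay in 100 cells. As a mean over cells that library stood at 53.6 and the ta-activated library of week 2 at 49.4, so that their order turned.

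**Figure D1:**
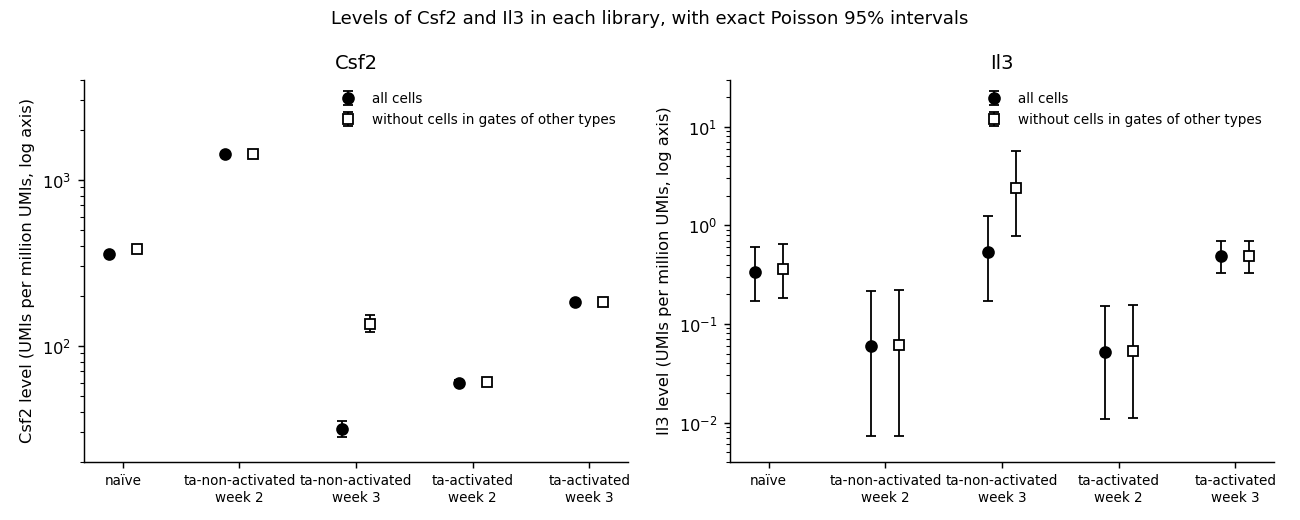
Levels of Csf2 (left) and Il3 (right) as UMIs per 1000000 UMIs on log axes in the 5 libraries. Filled circles are all kept cells, open squares are cells outside the gates of other cell types, and bars are exact Poisson 95% intervals. Csf2 of the ta-non-activated week 3 library is at 31.6 in all cells and at 136 outside the gates, and the Il3 levels are all under 3.

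The position of the week 3 ta-non-activated library in this order also depended on its T cell gate. The 905 gated cells held 15 Csf2 UMIs, all in 1 cell, a share of 0.110% at a median depth of 6144 UMIs. The 690 cells outside all gates had a Csf2 level of 136, with a Csf2 UMI in 14.3% of cells at a median depth of 2789 UMIs. The gated cells were the deeper ones and had Csf2 in the smaller share. Since the gate asks for UMIs of 3 or more T cell genes, shallow cells can miss it. Whether such cells were left among the 690 was not tested. Outside the gates the order became 1437 (ta-non-activated week 2), 380 (naïve), 183 (ta-activated week 3), 136 (ta-non-activated week 3) and 60.8 (ta-activated week 2). In the naïve library, 8.73% of the T cell gate had a Csf2 UMI (level 37.8, median 4883 UMIs), against 32.7% of cells outside the gates (median 4496 UMIs). In the ta-activated library of week 2 the shares were alike, 19.0% of the T cell gate (15 of 79, level 24.6) and 20.2% outside the gates (level 60.8). Whether gated cells with Csf2 were single cells was not tested.

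The Csf2 level of the ta-activated library lay under that of the ta-non-activated library in week 2 and above it in week 3. In week 2 the level was 60.0 in the activated and 1432 in the non-activated library, a ratio of 0.0419 (95% counting interval 0.0404 to 0.0434), or 23.9-fold lower in the activated library. In week 3 it was higher in the activated library, 183 against 31.6, a ratio of 5.79 (5.16 to 6.51). Outside the gates the ratio of week 2 was 0.0423 and that of week 3 was 1.35 (1.20 to 1.53). The non-activated level of the latter came from 282 UMIs in 99 of 690 cells, and these intervals treat UMIs as independent. With 1 library a week and group, neither difference was tested over samples. The group means were 732 ± 990 (SD, n = 2) in ta-non-activated and 121 ± 86.9 (SD, n = 2) in ta-activated ILC2s, so that the groups overlapped.

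The edgeR quasi-likelihood test of the 2 ta-activated against the 2 ta-non-activated libraries gave Csf2 a log2 fold change of -2.84 (SE 1.76, adjusted p = 0.451). The same edgeR fit gave Il3 a log2 fold change of 0.06 (SE 1.47, adjusted p = 0.988). At an adjusted p of 0.05, edgeR called 0 of 12643 genes (0%), with 2120 at an unadjusted p under 0.05, and DESeq2 called 1033 of 12928. Neither member was called by either tool. Without the ta-non-activated library of week 2 the log2 fold change of Csf2 turned to 1.99 (edgeR adjusted p = 0.159), and without that of week 3 it was -3.82 (adjusted p = 0.0539). Over all edgeR and DESeq2 settings the adjusted p of Csf2 ranged from 0.0539 to 0.9996.

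Shares of cells were compared after thinning each cell with 2000 or more UMIs at random to 2000. A Csf2 UMI was then found in 70.8% of ta-non-activated cells of week 2 (1280 of 1809), in 24.1% of ta-activated cells of week 3 (894 of 3714) and in 21.4% of naïve cells (1318 of 6147). It was found in 5.67% of ta-activated cells of week 2 (160 of 2822) and in 4.95% of ta-non-activated cells of week 3 (74 of 1495), or 12.1% of the latter outside the gates. Without thinning the shares were 90.4%, 63.8%, 31.0%, 20.1% and 6.25% in the same order.

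Naïve and ta-activated week 3 cells had Csf2 in similar shares but in different amounts. After thinning, a naïve cell with Csf2 held 3.18 Csf2 UMIs on average, against 1.44 in the ta-activated library of week 3. In the naïve library 4.03% of cells held 5 or more Csf2 UMIs and the highest held 61, whereas in the ta-activated library 0.377% did and the highest held 10. The top 10% of naïve cells carried 81.6% of the Csf2 UMIs, against 59.5% in the ta-activated library of week 3 and 44.5% in the ta-non-activated library of week 2. In the latter, 20.7% of cells held 5 or more. A cell with Csf2 held 4.19 there. In the ta-non-activated library of week 3 and the ta-activated library of week 2, where under 10% of cells had Csf2, the top 10% held 100% of it. For Il5 in naïve cells the top 10% carried 83.2%, but Il5 was found in a smaller share of cells than Csf2 (15.4%). A naïve cell with Il5 held 2.08 Il5 UMIs on average. The highest held 24, and 1.48% of cells held 5 or more. Il13 was found in 4.44% of naïve cells, so that its 100% in the top 10% was fixed by that share.

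Cycling cells had a lower Csf2 level in 4 of 5 libraries, and were deeper in each (a median of 12593 against 4475 UMIs in the naïve library). Outside the gates, cells with UMIs of 3 or more of 10 cell cycle genes had a Csf2 level of 329 in the naïve library (56 cells). The level was 382 in the other cells. The levels were 1147 against 1704 and 46.8 against 79.0 in the ta-non-activated and ta-activated libraries of week 2, and 158 against 207 in the ta-activated library of week 3. The ta-non-activated library of week 3 had 9 cycling cells outside the gates, with a level of 179 against 134. Without thinning, a Csf2 UMI was found in 46.4% of cycling and 32.6% of other naïve cells. The shares were 90.8% and 91.2% in the ta-non-activated library of week 2, and 44.4% and 13.95% in that of week 3. They were 23.9% and 18.2%, and 69.1% and 62.0%, in the ta-activated libraries of weeks 2 and 3. Levels are per UMI, whereas these shares are per cell at unequal depth.

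Csf2 did not keep a fixed ratio to Il5 or Il13, the signature cytokines of ILC2s. Il5 promotes eosinophil growth, and Il13 acts on epithelium and smooth muscle. The Il5 level was 170, 1224, 48.96, 1321 and 928, and the Il13 level was 55.6, 8861, 19.6, 3501 and 4318. Per Il5 UMI there were 2.09, 1.17, 0.646, 0.0454 and 0.197 Csf2 UMIs in the same order, and per Il13 UMI there were 6.40, 0.162, 1.61, 0.0171 and 0.0424. Csf2 therefore exceeded Il5 and Il13 together in naïve cells, and lay far under each of them in both ta-activated libraries.

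**Figure D2:**
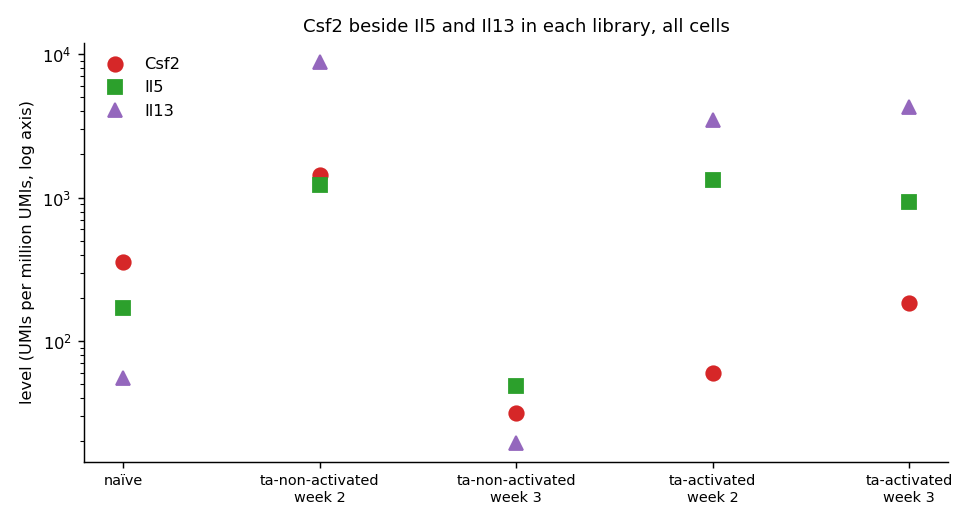
Levels of Csf2 (circles), Il5 (squares) and Il13 (triangles) in all kept cells of each library, as UMIs per 1000000 UMIs on a log axis, 1 library per position. Csf2 is the highest of the 3 in the naïve library (356) and the lowest in both ta-activated libraries (60.0 and 183).

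In week 2 the ratio of the activated to the non-activated library differed between the 3 genes. Each ratio compares 1 library with 1 library, and the part of activation in it was not tested. Il5 was 1.08-fold higher in the activated library (counting interval 1.07 to 1.09), Il13 was at 0.395 of its non-activated level, and Csf2 at 0.0419. In week 3 the ratios were 18.9 for Il5, 220 for Il13 and 5.79 for Csf2, and outside the gates 4.22, 49.1 and 1.35. Csf2 had the lowest ratio of the 3 in both weeks, with and without the gated cells. Fitted over all 4 libraries, edgeR called neither Il5 (log2 fold change 0.60, SE 1.41) nor Il13 (-0.42, SE 2.11), with adjusted p = 0.842 and 0.931.

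Within every library, cells with Il13 had Csf2 more often than cells without it. After thinning, Csf2 was found in 43.6% of Il13+ and 20.4% of Il13- naïve cells, a ratio of shares of 2.14 (95% counting interval 1.85 to 2.47). The shares were 74.9% and 39.9% in the ta-non-activated library of week 2 (ratio 1.88). In that of week 3 the shares were 32.1% (9 of 28 cells) and 4.43% (ratio 7.25, 4.03 to 13.1). They were 7.16% and 1.79% in the ta-activated library of week 2 (ratio 4.005, 2.33 to 6.89) and 26.0% and 13.4% in that of week 3 (ratio 1.94). Outside the gates the shares of the ta-non-activated library of week 3 were 32.1% (again 9 of 28 cells) and 11.1%, a ratio of 2.88. Its ratio was thus smaller without the T cell gate, where Csf2 was nearly absent.

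Il5 gave the same direction with smaller ratios in each library. Csf2 was found in 31.9% of Il5+ and 19.5% of Il5- naïve cells (ratio 1.63). The shares were 77.8% and 60.2% (1.29) in the ta-non-activated library of week 2, and 20.2% and 3.87% (5.22) in that of week 3, with a ratio of 1.96 outside the gates. They were 7.82% and 3.25% (2.41) and 28.7% and 18.1% (1.59) in the ta-activated libraries. Cells of a library are not replicates, and no p-value was computed over them.

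The share of cells with Csf2 was higher in cells with more Il13. In the ta-non-activated library of week 2 it was 39.9% at 0 Il13 UMIs, 54.6% at 1 to 3, 73.1% at 4 to 15 and 85.6% at 16 or more. In the ta-activated library of week 2 it was 1.79%, 3.73%, 7.93% and 20.3%, and in that of week 3 it was 13.4%, 19.8%, 26.1% and 41.7%. In naïve cells it was 20.4%, 40.9% and 60.0% over the first 3 classes, the last with 35 cells. At an equal Il13 class, ta-activated cells of week 2 thus had Csf2 less often than those of the other libraries shown.

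**Figure D3:**
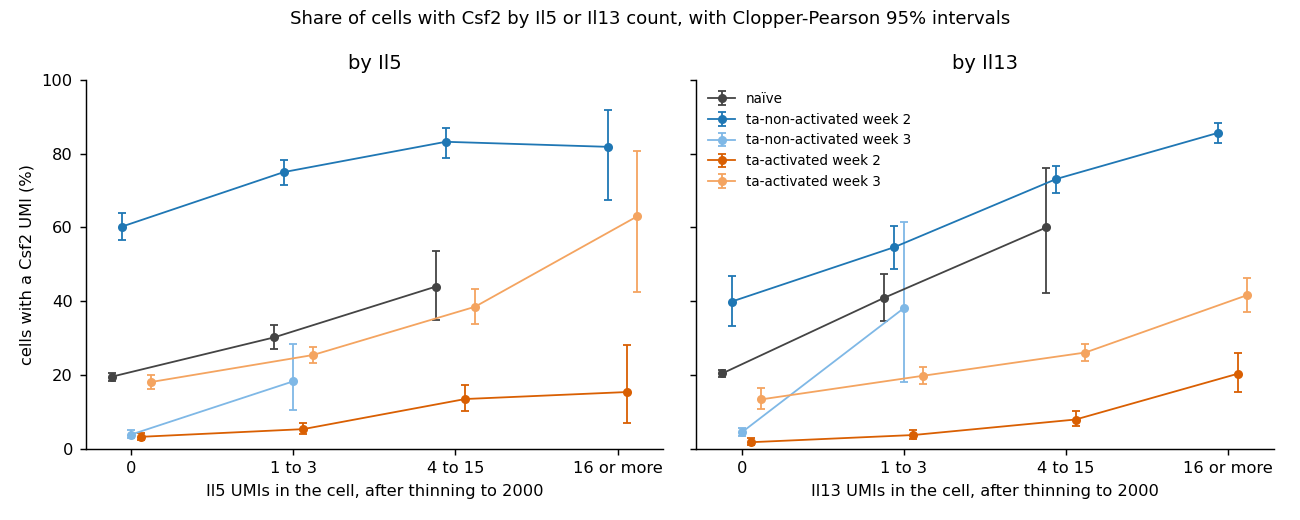
Share of cells with a Csf2 UMI (%) by the number of Il5 (left) or Il13 (right) UMIs in the cell after thinning to 2000 UMIs, 1 line per library, with Clopper-Pearson 95% intervals; classes with under 20 cells are left out. The ta-non-activated week 2 line is the highest at every class and the ta-activated week 2 line the lowest, and all lines are higher at 1 to 3 UMIs than at 0.

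The Csf2+ cells were set against all cells of their library for Il5 and Il13 together. Of naïve Csf2+ cells 71.8% (946 of 1318) had neither gene, against 81.7% of all naïve cells. In the ta-non-activated library the share was 4.77% against 9.34% in week 2, and 68.9% (51 of 74) against 92.5% in week 3. In the ta-activated library it was 6.88% against 19.8% in week 2, and 5.70% against 10.6% in week 3. Both Il5 and Il13 were found in 3.72% of naïve Csf2+ cells, against 1.53% of all naïve cells. Both were found in 64.1% of Csf2+ cells against 57.6% of all cells in the ta-non-activated library of week 2, and in 71.2% against 45.1% and 64.7% against 51.97% in the ta-activated libraries of weeks 2 and 3. The differences between libraries thus went with how common Il5 and Il13 were, and within each library Csf2+ cells had neither gene less often than all cells. In naïve cells with both, Csf2 was found in 52.1% (49 of 94), against 18.8% of cells with neither.

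Other cytokines differed in how they went with Csf2. In naïve cells the share with Csf2 was 36.9% with and 19.1% without Lif (an IL-6 family cytokine), and 28.96% with and 15.95% without Areg (the epidermal growth factor family ligand amphiregulin). It was 28.6% with and 20.2% without Il2, the T cell growth factor. With Tnf it was 20.2%, against 21.6% without, a ratio of 0.933 (0.811 to 1.07), and with Csf1, the macrophage growth factor, it was 14.9% against 21.9% (ratio 0.682, 0.539 to 0.862). In the ta-non-activated library of week 2 it was 76.9% with and 67.1% without Il9, a mast cell and T cell growth factor, and 91.6% with and 68.6% without Il6. In the ta-activated library of week 3 it was 32.3% with and 23.2% without Tnf, and 39.2% with and 22.8% without Lif. The Csf1 ratio was 0.881 (0.692 to 1.12) in the ta-non-activated library of week 2. In the ta-activated libraries of weeks 2 and 3 it was 1.78 (0.601 to 5.26) and 1.15 (0.754 to 1.75). In the ta-non-activated library of week 3, 0 of 14 cells with Csf1 had Csf2.

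The genes whose counts over cells were most like those of Csf2 were chosen by the mean of Pearson's r within the 5 libraries, over 7034 genes. They were Nfkbia (mean r 0.249), Il13 (0.246), Gadd45b (0.220), Furin (0.213), Il5 (0.191), Areg (0.183), Junb (0.180), Traf1 (0.175), Pim1 (0.162) and Bhlhe40 (0.137). Nfkbia encodes an inhibitor of NF-kB, Traf1 an adaptor of TNF family receptors, Junb a subunit of AP-1 and Pim1 a kinase. The r of Il13 ran from 0.149 to 0.470, highest in the ta-non-activated library of week 2, and that of Nfkbia from 0.190 to 0.312. Outside the gates 9 of the 10 were kept, and Srgn (0.134) took the place of Bhlhe40. All these correlations were low, the points are cells that share a library, and they are given as a description. Gata3, the defining factor of ILC2s, had a mean r of 0.0491 with Csf2 and stood at rank 114.

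**Figure D4:**
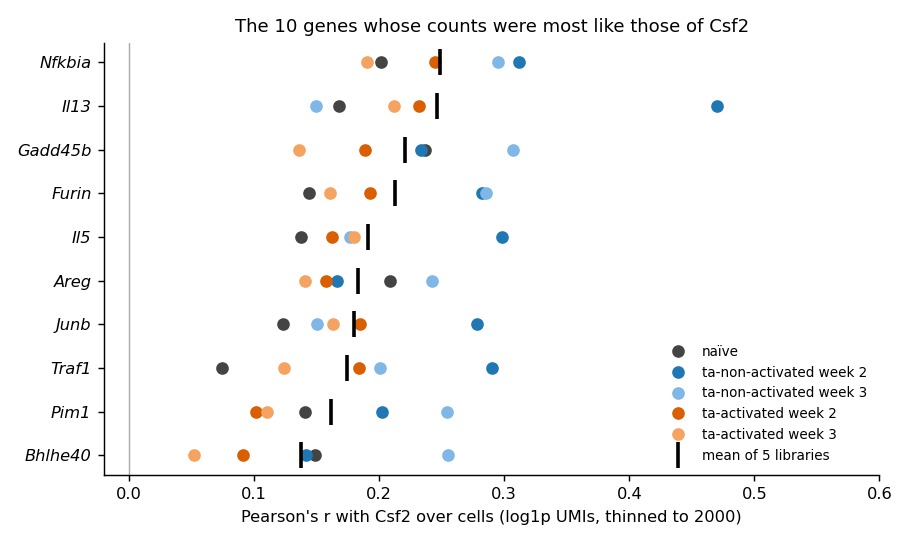
Pearson's r with Csf2 over the cells of each library (dots) for the 10 genes with the highest mean r (black bars), on natural-log UMIs plus 1 after thinning to 2000. Every r is above 0, and the highest single value is that of Il13 in the ta-non-activated week 2 library (0.470).

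Il3 was nearly absent. It gave 51 UMIs in 19 of 16530 cells (0.115%), against 74178 Csf2 UMIs. The naïve level was 0.340 (11 UMIs in 10 cells). Ta-non-activated levels were 0.0602 in week 2 (2 UMIs in 1 cell) and 0.532 in week 3 (5 UMIs in 3 cells). Ta-activated levels were 0.0523 in week 2 (3 UMIs in 1 cell) and 0.485 in week 3 (30 UMIs in 4 cells). A floor of 3 counts per library lies between 0.0485 and 0.319 CPM, so that both libraries of week 2 were at or under it and no fold is given between them. In week 3 the ratio of the activated to the non-activated library was 0.912 (counting interval 0.350 to 3.01), and a difference was not detectable at this depth. Outside the gates it was 0.202 (0.0777 to 0.667), from the same 30 and 5 UMIs in 4 and 3 cells, an interval that treats UMIs as independent. The shares of cells with Il3 there were 0.105% (0.0287 to 0.269) and 0.435% (0.0898 to 1.27), with overlapping intervals.

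The Il3 counts came from few cells. Of the 30 UMIs of the ta-activated library of week 3, 19 were in 1 cell and 9 in another, and 13 of the 19 Il3+ cells had a single UMI. The cell with 19 Il3 UMIs also held 65 Csf2, 562 Il5 and 897 Il13 UMIs among 28663, and 99.6% of the cells of its library had less Csf2 per UMI. The cell with 9 held 8 Csf2, 242 Il5 and 462 Il13 UMIs. The cell with 3 in the ta-activated library of week 2 had 107765 UMIs, 7.90 times the median of its library, and one cell with 1 Il3 UMI in week 3 had 111841, 9.10 times the median. Totals of that size can come from more than 1 cell in a droplet, which was not tested.

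Il3+ cells mostly held Csf2. Of the 19, 16 had a Csf2 UMI without thinning (84.2%, Clopper-Pearson interval 60.4 to 96.6), 13 had Il5 and 6 had Il13. Over all 16530 cells the shares were 40.8% for Csf2, 54.8% for Il5 and 51.3% for Il13, and 17 of the 19 cells were deeper than the median of their library. In the naïve library 8 of 10 Il3+ cells had Csf2 (44.4 to 97.5%), against 31.0% of all naïve cells. Of the same 10, 4 had Il5 and 0 had Il13, against 25.9% and 7.47% of all naïve cells. In 10 of the 19 the Csf2 count per UMI was higher than in 90% of the cells of the library. Of these 10, 2 were in the ta-non-activated library of week 3, where 6.25% of all cells had Csf2. Any cell with Csf2 passes the mark there. None of the 19 lay in a gate of another cell type, and 4 were cycling. The mast cell or basophil gate took 0 cells in each library. The 9 genes of that list summed to 35.5, 0.0301, 85.3, 121 and 2.46, with 4, 8, 6, 4 and 4 of them at 0, and Ms4a2 and Mcpt4 were at 0 in all 5. Their part in the Il3 counts was not tested. No library had 50 cells with Il3, so no gene likeness was computed for it.

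**Figure D5:**
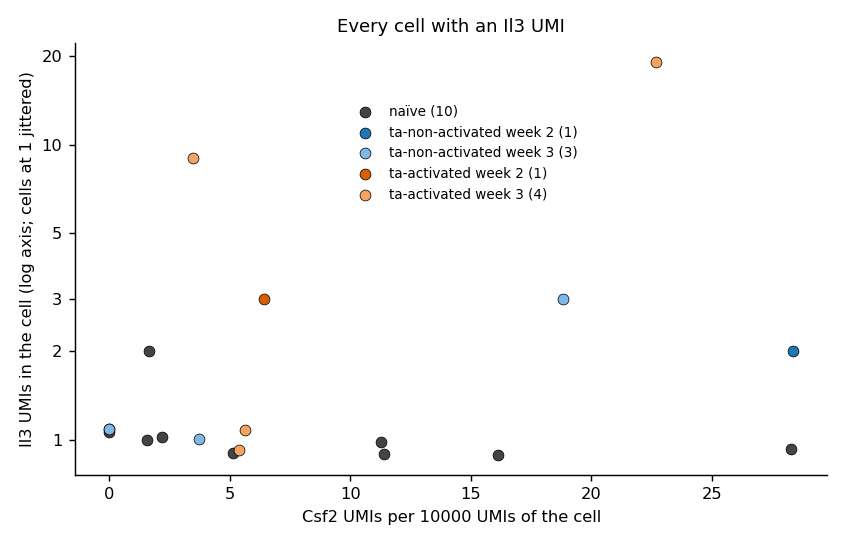
All 19 cells with an Il3 UMI, by Csf2 UMIs per 10000 UMIs of the cell (x axis) and Il3 UMIs (y axis, log scale, with small vertical jitter for cells at 1), coloured by library with the number of cells in brackets. Of these, 3 cells lie at 0 Csf2 (2 naïve and 1 of the ta-non-activated library of week 3), and the cells with 19 and 9 Il3 UMIs come from the ta-activated library of week 3.

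Receptor genes for the 2 cytokines were low, and edgeR called none of them between the groups, nor any of all 12643 genes tested. The alpha chain Il3ra stood at 8.89, 9.51, 7.56, 35.7 and 39.2, with no overlap between the ta-activated and ta-non-activated groups. The common beta chain Csf2rb stood at 0.0309, 2.86, 0, 9.35 and 19.8, and the IL-3-specific beta chain Csf2rb2 at 0.154, 0.752, 0, 1.01 and 3.53. These beta chains are near-identical copies, so that their split is uncertain. The alpha chain Csf2ra was at 6.85, 4.48, 10.96, 4.05 and 4.72, and the alpha chain Il5ra had at most 1 UMI in a library. Of the 4 receptor genes tested, 3 were higher in both ta-activated libraries than in both ta-non-activated ones, as were 32.4% of all 12643 genes tested, and 20.6% of genes were lower in both. The edgeR fit gave Il3ra a log2 fold change of 2.01 (SE 0.37, adjusted p = 0.243). The summed level of the 9 mast cell or basophil genes was 35.5, 0.0301, 85.3, 121 and 2.46, and that of 7 myeloid genes 9.60, 1.05, 16.2, 3.66 and 3.07, in the same order. The part of such cells in the receptor levels was not tested.

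Genes downstream of these receptors gave no call in edgeR, which called 0 of all 12643 genes tested. Of all genes tested, 32.4% were higher in both ta-activated libraries than in both ta-non-activated ones, and 20.6% were lower. Of 5 signalling genes, Stat3 was higher and Stat5a lower in both ta-activated libraries, with log2 fold changes of 0.61 and -0.85 (edgeR adjusted p = 0.396 and 0.306). Jak2, the kinase bound to the beta chain, was at 534, 212, 37.6, 190 and 449, and the groups overlapped. Of 4 feedback genes, Socs2 was higher in both ta-activated libraries (153 and 90.7, against 63.3 and 30.7). Cish, a STAT5 target that restrains cytokine signalling, stood at 233, 176, 42.9, 170 and 262.

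Among the factors known to act at the locus, Fos, Nfkb1 and Jun were ordered differently from Csf2 across the libraries. Irf4 had the same extremes as Csf2 in all kept cells, highest in the ta-non-activated library of week 2 (51.0) and lowest in that of week 3 (0.852). Most UMIs of that week 3 library lay in the T cell gate, and levels outside the gates are not given for these factors. Fos and Nfkb1 were highest in the naïve library, with Nfkb1 at 3310 there and at 127 to 229 in the others. The naïve matrix header names version 6.0.0 of the counting software and the others 3.0.2, and its part was not tested. Jun was at 621 and 907 in the naïve and ta-non-activated week 3 libraries, and at 13.9 to 36.1 in the other 3, which hold both the highest Csf2 level and the second lowest. Of 16 such factors, 4 were higher and 2 lower in both ta-activated libraries, no larger shares than the 32.4% and 20.6% over all genes, and edgeR called 0 (median log2 fold change -0.26, against -0.02 over all genes tested). Nfatc2 had a log2 fold change of 1.57 (edgeR adjusted p = 0.243) and Jun of -4.76 (adjusted p = 0.262). Gata3 was at 780, 336, 189, 568 and 899.

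The cytokines given in the culture act through IL-33, TSLP and IL-2 receptor chains, and their genes were set beside Csf2. Of 7 such genes, 5 were higher in both ta-activated libraries and none lower (median log2 fold change 1.04), against 32.4% and 20.6% of all genes tested, and edgeR called 0. Crlf2, the TSLP receptor chain, stood at 46.7, 41.7, 43.4, 122 and 92.2 (log2 fold change 1.23, edgeR adjusted p = 0.254), whereas Il1rl1, the IL-33 receptor, stood at 791, 56.3, 82.9, 46.7 and 121 with overlapping groups. Of 12 other cytokine genes of ILC2s, 4 (Il4, Areg, Lif and Calca) were higher in both ta-activated libraries and none lower, a share of higher genes near the 32.4% over all genes, and edgeR called 0. The ta-non-activated levels of Csf2 lay on both sides of the ta-activated ones.

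Genes that act on AU-rich or other cytokine mRNA were highest in the naïve library for 5 of 6. The share of all genes that were highest there was not counted. Genes outside this list were so too, such as Fnip1 (341, against 16.4 to 41.4 in the other libraries). The matrix headers name version 6.0.0 of the counting software for the naïve library and 3.0.2 for the others, and its part was not tested. Zfp36, which encodes the decay factor tristetraprolin, stood at 394, 6.05, 82.9, 44.3 and 32.7. Its level was thus highest in the library with the second highest Csf2 level and lowest in the one with the highest. Zfp36l1 stood at 1476, 42.1, 237, 36.5 and 72.2, and Zfp36l2 at 1341, 59.4, 708, 124 and 127. Zc3h12a, which encodes the RNase Regnase-1, stood at 77.6, 57.9, 31.1, 19.7 and 46.7, and Rc3h1 (Roquin) at 102, 18.7, 25.4, 28.6 and 37.7. Elavl1, which encodes the stabilizing factor HuR, was highest in the ta-non-activated library of week 3 at 199, where most UMIs lay in gated cells. Of the 6, edgeR called 0, as it did of all 12643 genes tested (median log2 fold change -0.67, against -0.02 over all genes). In both ta-activated libraries 1 of them was higher and 1 lower, against 32.4% and 20.6% of all genes tested.

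Genes around Csf2 and Il3 had patterns of their own. Of 13 other measured genes within 500 kb, 12 were tested and edgeR called 0, as it did of all 12643 genes tested. P4ha2, a prolyl hydroxylase subunit, stood at 8.03, 77.5, 2.24, 33.3 and 115. The lincRNA 4933405E24Rik stood at 2.99, 19.1, 0.106, 0.819 and 9.19, the same order of libraries as Csf2 but for the naïve and ta-activated week 3 libraries. Its lowest level, in the ta-non-activated library of week 3, came from 1 UMI, under the floor of 3 counts. Irf1, the farthest of them at 479653 bases, stood at 60.6, 93.1, 68.3, 243 and 132. Acsl6, whose start is 36521 bases away, had a level of 0 to 0.488 in each library.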

How the data were processed

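The 5 single cell RNA libraries (10x Genomics 3′ v3.1) were made from cells pooled over 5 mice per group. They were deposited as whole-number UMI counts per gene and barcode. The authors made the counts with Cell Ranger 3.0.2 on GRCm38 per the processing notes (the naïve matrix header names 6.0.0). Seurat 3 is also named there, and the annotation used for counting is not given in the sources used here. Csf2, Il3 and the gene lists were chosen with earlier results of these data known. The genes named were the members, the genes of those lists, the genes likest to Csf2 by mean r and the neighbours within 500 kb.

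Barcodes with 200 or more genes and under 5% mitochondrial counts were kept (Python 3.11.15, numpy 2.4.6, scipy 1.17.1, pandas 2.3.3). Depth was 9394957 to 61830293 UMIs per library. Exact Poisson, Clopper-Pearson and Katz 95% intervals cover counting error only, and the intervals of levels and their ratios treat the UMIs of a cell as independent. For shares, cells were thinned once to 2000 UMIs, which left out 14 to 242 shallower cells a library. A cell was gated as another type when it had UMIs of 3 or more genes of that list and of more than of the ILC2 list. No doublet caller was run.

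Counts were summed per library, and the 2 ta-activated were tested against the 2 ta-non-activated sums with edgeR 4.0.16 (quasi-likelihood, TMM, low counts filtered, R 4.3.3) with Benjamini-Hochberg adjustment. DESeq2 1.42.0 was an alternative, as were other filters, thinning depths, all barcodes, all genes, 5 libraries in the fit, a replicate block, removal of gated cells and each library left out. Leaving out the 5% of cells with the most UMIs and repeating the likeness outside the gates were chosen after seeing the data. The edgeR step was also run on simulated counts, and the outcome is not given here. A count of 0 called genes therefore does not show that no gene differed. Nothing says that the libraries of a group were separate experiments, so p-values measure the spread between these libraries, which also differ in week.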

Additional observations from a re-analysis of the deposited data

Results flagged for a closer look

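The ratio of the ta-activated to the ta-non-activated library lay on opposite sides of 1 in the 2 weeks for Csf2 and for Il13. For Csf2 it was 0.0419 in week 2 and 5.79 in week 3. For Il13 it was 0.395 in week 2 and 220 in week 3. Each ratio compares 1 library with 1 library, and the difference between the weeks was not tested. In week 3 the ratios outside the gates of other cell types were 1.35 and 49.1.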

How the results depend on the processing

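Leaving out each library in turn gave log2 fold changes of -3.82 to 1.99 for Csf2 over 4 fits and -0.93 to 1.86 for Il3 over 3 fits (Il3 was not tested without the ta-activated library of week 3), and 0 to 1646 genes past the threshold. Csf2 turned direction without the ta-non-activated library of week 2 (1.99). The counts of genes were 1646 without that library and 513 without that of week 3. In these fits a lone library is assumed to vary like the other group. DESeq2 called 1033 genes where edgeR called 0. Il3 turned direction with DESeq2 (-0.094), cells up to 10% mitochondrial counts (-0.053), gated cells left out (-1.62) and without the ta-non-activated library of week 2 (-0.93). The cause was not tested.

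With the week as a replicate block, the log2 fold change was -1.13 for Csf2 (SE 2.9997, edgeR adjusted p = 0.894) and -0.23 for Il3, and 0 genes were called. Same-week libraries shared a number and no animals are named as common, and the correlation of their deviations was -0.0609 over 12643 genes in week 2.

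The ratio of Csf2 shares in Il5+ to Il5- cells was 1.90 (naïve) and 1.39 (ta-non-activated week 2) at 1000 UMIs, 1.40 (ta-non-activated week 2) and 1.88 (ta-activated week 3) without thinning, and 1.96 in the ta-non-activated library of week 3 without gated cells. For Il13 it was 2.15 in the ta-activated library of week 2 without thinning and 2.88 in the ta-non-activated library of week 3 without gated cells. All 25 alternatives for each partner were above 1. As a mean over cells, Csf2 was at 335, 1457, 53.6 and 49.4 (naïve, ta-non-activated weeks 2 and 3, ta-activated week 2) and Il3 at 0.00962 and 0.283 (ta-activated weeks 2 and 3). By this measure Csf2 of the ta-non-activated library of week 3 stood above that of the ta-activated library of week 2. Without gated cells Csf2 was at 380 (naïve) and 136 and Il3 at 2.41 (ta-non-activated week 3). All Il3 values rest on 51 UMIs, and the cause of this low count was not tested.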
